A study of Mus musculus with 6 samples.

Results

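The genes described here encode kinases of the RAF and MEK tiers of the ERK signalling cascade and 3 of its feedback inhibitors, in cochleae of mouse embryos with and without Igf1. Of 8 listed genes (Braf, Araf, Map2k1, Map2k2, Mapk3, Dusp6, Spry1 and Spry2), 7 were found by taking every probe set that the platform annotation assigns to that gene alone. They are 7 of 12393 genes measured, read by 9 of 22626 probe sets. Mapk3, which encodes the kinase ERK1, was not analysed here, so no ERK gene stands among the members measured. Map2k2 and Spry2 had 2 probe sets each, the other 5 genes 1 each.

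Each sample was RNA pooled from 4 cochleae of C57BL/6J embryos at 18.5 days post coitus, bred from heterozygous parents, with the otic capsule kept and the vestibular tissue removed. The null pools came from Igf-1-/- embryos, in which both copies of the insulin-like growth factor 1 gene are null, and the wild type pools from Igf-1+/+ embryos. There were 3 pools and 3 arrays of each genotype, named here by genotype and by the replicate number of their titles. A further label field writes the wild type sign beside the null samples, and the grouping used follows the titles and descriptions. The disrupted part of Igf1 is not named in the labels. Because whole pooled organs were measured, fewer cells of a type and less RNA per cell cannot be told apart.

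RAS proteins at the cell membrane recruit RAF kinases, which phosphorylate the MEK kinases, which in turn phosphorylate the ERK kinases. The flow through the cascade is set mainly by phosphorylation, which a transcript measurement does not read. Active ERK also induces genes that damp the pathway, among them the phosphatase gene Dusp6 and the Sprouty genes, so transcripts of these inhibitors are widely read as a sign of ERK output. Insulin-like growth factor 1 is one of the ligands that engage this cascade, through the receptor kinase Igf1r. In the chicken otic vesicle, RAF activity is known to promote proliferation of neuroepithelial cells, and in the mouse cochlea Spry2 limits fibroblast growth factor signalling in the supporting cells around the tunnel of Corti.

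Promoter windows of the 3 feedback inhibitors are shown because their transcripts are widely read as a sign of ERK output. The window of Map2k1 is shown because it was the member whose arrays separated by genotype. That of Braf is shown because it had the largest difference among the brightest probe sets. They are RefSeq sequences of build GRCm38.p6, from 250 bases before to 50 after the transcription start and written 5′ to 3′ on the gene's strand. All 7 measured genes matched the RefSeq table. Capitals mark the ETS core (CCGGAA, searched on both strands) and the cAMP response element (TGACGTCA, the same on both strands), which share no bases in these windows. The windows lie at chr6:39725414-39725713 (minus strand) for Braf, chr9:64253556-64253855 (minus strand) for Map2k1, chr10:99262981-99263280 (plus strand) for Dusp6, chr3:37639697-37639996 (plus strand) for Spry1 and chr14:105896770-105897069 (minus strand) for Spry2.
Braf: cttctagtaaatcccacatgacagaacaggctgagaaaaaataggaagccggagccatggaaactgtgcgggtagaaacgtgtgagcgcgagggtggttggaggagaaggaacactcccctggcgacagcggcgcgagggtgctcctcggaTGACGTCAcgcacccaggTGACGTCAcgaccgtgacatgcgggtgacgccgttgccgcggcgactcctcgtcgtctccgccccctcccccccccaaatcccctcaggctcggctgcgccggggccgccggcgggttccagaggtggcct
Map2k1: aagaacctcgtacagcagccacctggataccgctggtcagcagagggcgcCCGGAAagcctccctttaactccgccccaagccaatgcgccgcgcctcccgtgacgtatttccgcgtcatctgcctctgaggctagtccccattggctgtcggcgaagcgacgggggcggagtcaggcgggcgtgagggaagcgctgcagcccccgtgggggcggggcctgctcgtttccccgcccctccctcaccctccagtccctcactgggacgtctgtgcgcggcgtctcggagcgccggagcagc
Dusp6: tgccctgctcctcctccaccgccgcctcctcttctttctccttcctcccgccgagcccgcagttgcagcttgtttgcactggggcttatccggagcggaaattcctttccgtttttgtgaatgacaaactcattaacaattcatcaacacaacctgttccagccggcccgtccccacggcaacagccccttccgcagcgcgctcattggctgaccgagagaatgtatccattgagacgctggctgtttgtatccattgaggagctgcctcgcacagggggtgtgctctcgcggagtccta
Spry1: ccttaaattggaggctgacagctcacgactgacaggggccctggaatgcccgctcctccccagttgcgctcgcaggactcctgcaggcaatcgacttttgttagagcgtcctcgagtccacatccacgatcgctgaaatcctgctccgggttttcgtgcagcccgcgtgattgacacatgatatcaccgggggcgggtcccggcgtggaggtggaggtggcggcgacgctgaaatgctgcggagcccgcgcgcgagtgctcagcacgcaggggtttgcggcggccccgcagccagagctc
Spry2: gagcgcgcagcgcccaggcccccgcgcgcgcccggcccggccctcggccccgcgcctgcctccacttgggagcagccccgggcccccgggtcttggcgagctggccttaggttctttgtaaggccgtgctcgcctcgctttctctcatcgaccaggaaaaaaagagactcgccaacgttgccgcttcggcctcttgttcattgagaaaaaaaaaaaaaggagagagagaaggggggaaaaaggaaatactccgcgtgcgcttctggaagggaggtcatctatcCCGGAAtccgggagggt

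The ETS core, the motif bound by the ERK-responsive ETS factors among others, was found in the windows of Araf, Map2k1 and Spry2, and in 14.9% of 32851 promoter windows of the same length. Dusp6 and Spry1 held no copy of CCGGAA, and shorter or other forms of the ETS motif were not searched. The Braf window held 2 copies of the cAMP response element, at positions -99 and -81 from the start, and 1.79% of all windows held at least 1. The CArG box of serum response factor was found in none of the 7 windows and in 1.63% of all. These matches describe the letters of short windows and say nothing of binding.

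The deleted gene was read first. Igf1 signal, on the log2 scale after quantile normalization of the arrays, was 7.14, 6.92 and 7.12 in null replicates 1 to 3, against 7.93, 8.09 and 8.14 in wild type replicates 1 to 3, at the probe set with the widest gap. At all 3 Igf1 probe sets the null arrays were below the wild type arrays without overlap, with null to wild type ratios of 0.729, 0.502 and 0.684 from the brightest to the dimmest. None passed in limma (adjusted p = 0.887, 0.600 and 0.889 over all probe sets). Signal that remains at a probe set outside the disrupted part would not bear on the genotype, and where the probe sets lie relative to it is not known here.

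Array medians of the deposited log2 signals ran from 5.61, in null replicate 1, to 6.36, and correlations between arrays across probe sets from 0.938 to 0.961. The 14 measured cochlear and otic markers lay between the 16.8 and 91.0 percentiles of gene levels. Otos, Kcne1, Kcnq1, Jag1 and Eya1 were dim, with mean levels over all arrays from 2.55 to 5.06. The signal was bright for Coch, the cochlin gene (mean level 8.96 in null and 8.60 in wild type pools), and for Tecta, the alpha-tectorin gene of the tectorial membrane (9.39 in null and 9.12 in wild type pools). Oc90, an otoconial gene listed here as a vestibular marker, was also bright, at 11.09 in null and 10.23 in wild type pools. The vestibular tissue was dissected away, and which cells gave this signal was not tested. In limma no probe set passed an adjusted p of 0.05 (0 of 22626, or 0%), and 1130, or 4.99%, had an unadjusted p under 0.05. Arrays of the 2 genotypes were fully apart at 10.8% of probe sets and for 10.6% of genes.

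No gene of the RAF and MEK tiers or of the feedback inhibitors passed the test for a difference between null and wild type cochleae. Of the 7 genes, 5 had lower and 2 higher mean signal in the null pools at the brightest probe set, with a median difference of -0.07 on the log2 scale, while 48.7% of all genes were lower and their median difference was 0.0062. The median of the 7 was -0.16 without wild type replicate 1, -0.020 without wild type replicate 2 and -0.027 without wild type replicate 3. It was -0.20 on the values as deposited, where the median probe set differed by -0.15. Differences at the 9 probe sets ran from -0.29 to 0.41. The adjusted p in limma was between 0.980 and 0.995 for all 9 probe sets, 0 had an unadjusted p under 0.05, and each 95% interval held 0. Dusp6 and the 2 MEK genes were the members measured most tightly, at their brighter probe sets, with null to wild type ratios whose 95% intervals lie between 0.720 and 1.19.

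**Figure D1:**
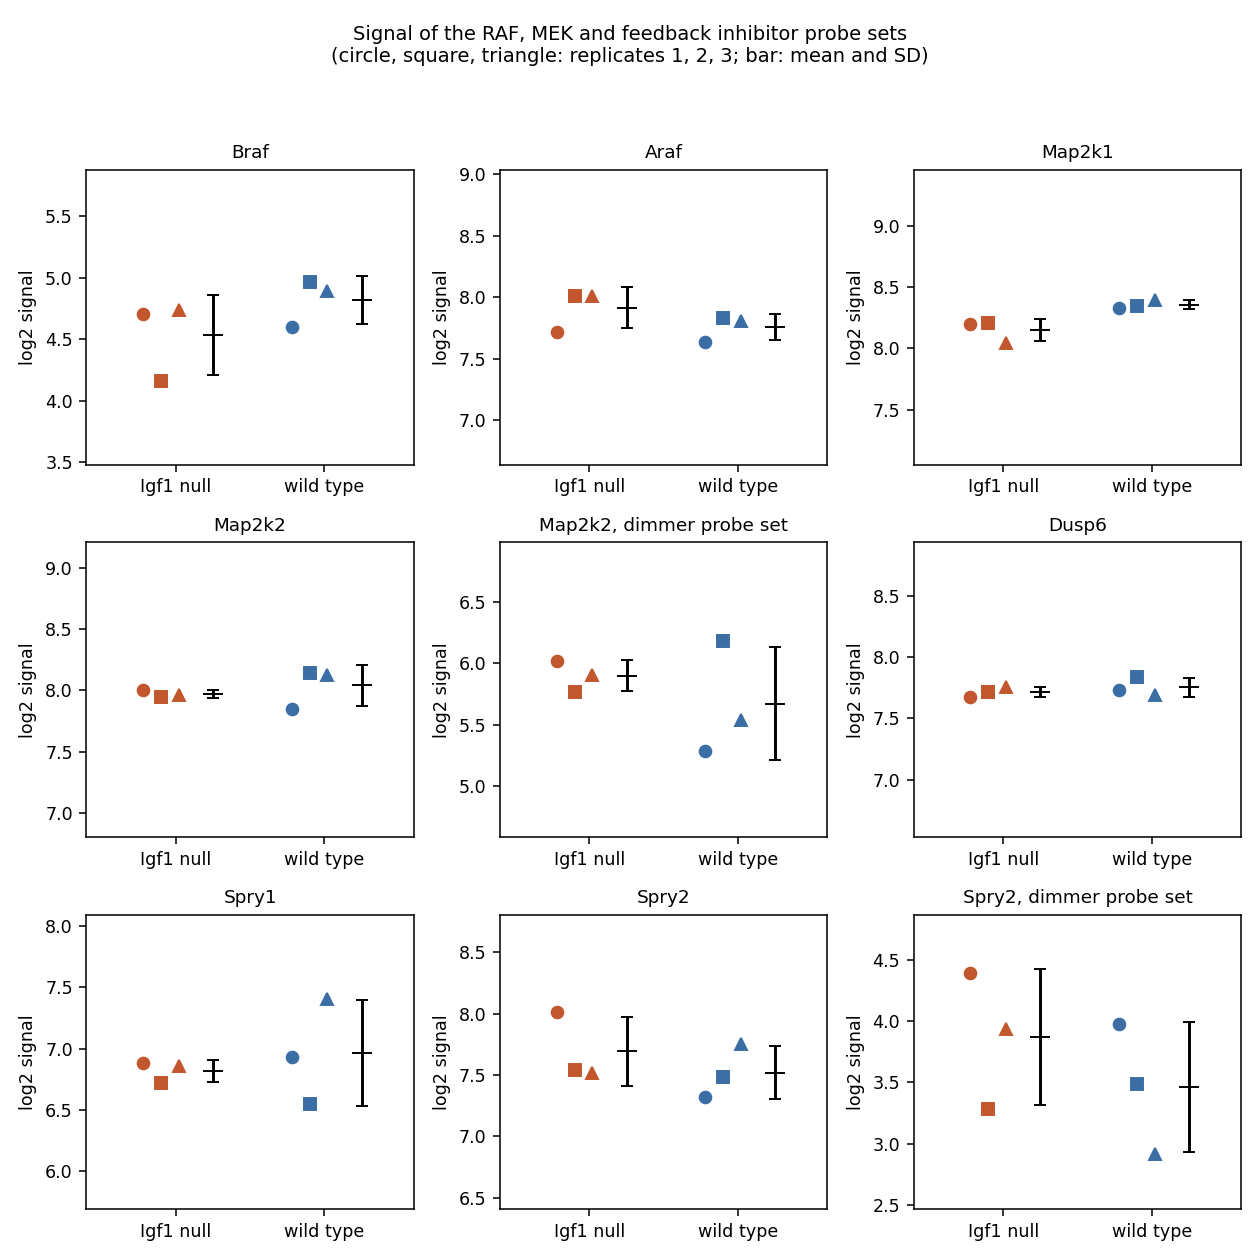
Log2 signal after quantile normalization at each of the 9 probe sets, 1 panel a probe set and 1 point an array, with the Igf1 null arrays left of the wild type arrays and the mean and SD of 3 arrays beside them; every vertical axis spans the same range. The groups are apart for Map2k1 and overlap in the other 8 panels.

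Among the RAF kinases, Araf was bright and Braf dim. Araf, an X-linked gene for one of the RAF family of MEK kinases, had 7.72, 8.01 and 8.01 in null replicates 1 to 3, against 7.63, 7.83 and 7.81 in wild type replicates 1 to 3. The means were 7.91 ± 0.17 in null and 7.76 ± 0.11 in wild type pools (SD, n = 3 each), a difference of 0.16 ± 0.14 (SE), and the groups overlapped because null replicate 1 lay among the wild type arrays. Braf, the RAF kinase gene with the strongest basal MEK kinase activity of its protein, had 4.71, 4.16 and 4.74 in the null arrays, against 4.60, 4.97 and 4.89 in the wild type arrays. The Braf means were 4.54 ± 0.33 in null and 4.82 ± 0.19 in wild type pools (SD, n = 3 each) and differed by -0.29 ± 0.21 (SE), with a 95% interval from -0.82 to 0.25, a ratio between 0.567 and 1.19. Null replicate 2 was the low array, and without it the Braf difference was -0.10. The Braf probe set lay at the 34.3 percentile of probe set levels and that of Araf at the 76.7 percentile. Signals of different probe sets do not share a scale, so this does not order the transcripts.

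Of the MEK genes, Map2k1 had null arrays that all lay below the wild type arrays. Map2k1, which encodes MEK1, had 8.20, 8.20 and 8.04 in null replicates 1 to 3, against 8.33, 8.34 and 8.40 in wild type replicates 1 to 3. The means were 8.15 ± 0.09 in null and 8.36 ± 0.04 in wild type pools (SD, n = 3 each). The difference was -0.21 ± 0.11 (SE), a ratio of 0.866 with a 95% interval from 0.720 to 1.04. In limma the unadjusted p was 0.103 and the adjusted p 0.980, and an exact two-sided permutation over arrays gave p = 0.1, the smallest that 3 against 3 arrays allow. Groups that do not overlap with the null lower occur at 5.30% of all probe sets, and 1 of 9 is near the 10.8% for both directions. The Map2k1 difference was -0.16 to -0.24 when single arrays were left out and -0.25 without the arrays whose titles carry the number 14.

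Map2k2, which encodes MEK2, had overlapping groups at both probe sets. Its brighter probe set had 8.004, 7.946 and 7.962 in the null arrays, against 7.852, 8.143 and 8.129 in the wild type arrays, a difference of -0.07 ± 0.12 (SE). Its dimmer probe set had 6.02, 5.77 and 5.91 in the null arrays, against 5.29, 6.18 and 5.54 in the wild type arrays, a difference of 0.23 ± 0.26 (SE). The null arrays lay inside the wild type range at both, and the probe sets differed in sign, although the annotation gives the same source accession for both. Over the 6 arrays they correlated with Pearson's r of 0.524 and Spearman's rho of 0.657, a description of arrays that share the same samples.

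Markers of other tissues were read beside Map2k1. All 11 measured cartilage and bone markers and all 6 endothelial markers had lower means in the null pools, as Map2k1 had, and 0 passed in limma. The log2 summed signal of cartilage and bone markers ran from 14.74 to 14.91 in null and from 14.86 to 15.17 in wild type arrays. That of endothelial markers ran from 9.62 to 9.83 and from 9.74 to 10.03, so both sums overlapped between genotypes. Arrays were apart, with the null lower, for 3 of the 11 cartilage and bone markers and 0 of the 6 endothelial markers. In either direction this holds for 10.6% of all genes. Within the null arrays the order differed, since null replicate 3 had the lowest Map2k1 signal and the highest cartilage and bone sum. Within the wild type arrays the order was the same, with cartilage and bone sums of 14.86, 15.16 and 15.17 in replicates 1 to 3. The 3′ minus 5′ signal of beta-actin, a sign of RNA quality, was 0.86 to 1.08 in null and 0.71 to 0.80 in wild type arrays, and did not overlap. The same measure for Gapdh did overlap, at 0.18 to 0.52 in null and 0.19 to 0.32 in wild type arrays. The part of the markers and of RNA quality in the Map2k1 values was not tested.

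**Figure D2:**
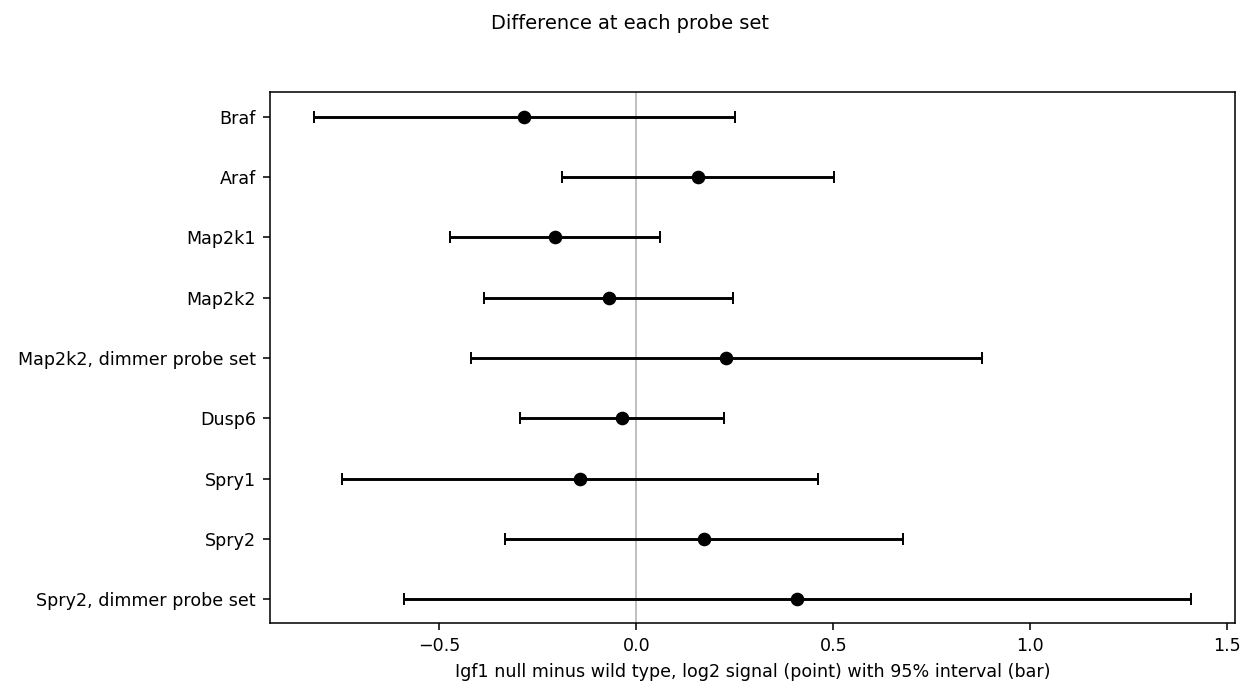
Difference of Igf1 null minus wild type in log2 signal at each of the 9 probe sets (points) with limma's 95% intervals (bars); the vertical line marks no difference. Every interval crosses 0, and the shortest are those of Dusp6 and Map2k1.

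Dusp6, which encodes a cytoplasmic phosphatase specific for ERK, was the most even of the members. It had 7.67, 7.72 and 7.75 in null replicates 1 to 3, against 7.73, 7.83 and 7.69 in wild type replicates 1 to 3. The means were 7.71 ± 0.04 in null and 7.75 ± 0.07 in wild type pools (SD, n = 3 each). The difference was -0.04 ± 0.10 (SE), with a 95% interval from -0.30 to 0.22, which bounds the null to wild type ratio between 0.815 and 1.17. Its SE was smaller than that of all but 2.15% of probe sets, and 12.7% of probe sets had a smaller absolute difference.

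The Sprouty genes, whose products block receptor signalling upstream of or at RAF, varied more from pool to pool. Spry1 had 6.89, 6.72 and 6.86 in null replicates 1 to 3, against 6.93, 6.55 and 7.41 in wild type replicates 1 to 3. The null arrays lay inside the wild type range, and the difference was -0.14 ± 0.24 (SE) with an interval from -0.75 to 0.46. The SD was 0.09 in null and 0.43 in wild type pools. Without wild type replicate 3, the highest array, the Spry1 difference was 0.08, against -0.35 without wild type replicate 2. Skeletal muscle markers had log2 summed signals of 14.27, 13.68 and 12.57 in the null arrays, another order than that of Spry1. In the wild type arrays they had 13.62, 12.52 and 14.29, the same order as Spry1. Their part in the Spry1 values was not tested.

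Spry2 was read by a bright and a dim probe set. The brighter had 8.02, 7.54 and 7.52 in null replicates 1 to 3, against 7.32, 7.49 and 7.75 in wild type replicates 1 to 3, a difference of 0.17 ± 0.20 (SE). Null replicate 1 alone stood above the wild type range, and without it the Spry2 difference was 0.0099. The dimmer probe set had 4.39, 3.29 and 3.94 in the null arrays, against 3.98, 3.49 and 2.92 in the wild type arrays, a difference of 0.41 ± 0.40 (SE), at the 26.8 percentile of levels. The probe sets correlated with r = 0.191 and rho = -0.086 over the 6 arrays. Neither separated the genotypes.

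Differences between paralogues within an array, which cancel the overall brightness of that array, were compared next. Araf minus Braf was 3.01, 3.85 and 3.27 in null replicates 1 to 3, against 3.03, 2.86 and 2.92 in wild type replicates 1 to 3. The means differed by 0.44 ± 0.25 (SE), and by 0.21 without null replicate 2. Map2k2 minus Map2k1 was -0.19, -0.26 and -0.08 in the null arrays, against -0.47, -0.20 and -0.27 in the wild type arrays, a difference of 0.14 ± 0.10 (SE). Spry2 minus Spry1 was 1.13, 0.82 and 0.66 in the null arrays, against 0.39, 0.94 and 0.34 in the wild type arrays, a difference of 0.31 ± 0.24 (SE). The groups overlapped for all 3 pairs, and the exact permutation tests, two-sided, gave p = 0.2, 0.2 and 0.3, or 0.3 each after Benjamini-Hochberg adjustment over the 3 pairs.

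**Figure D3:**
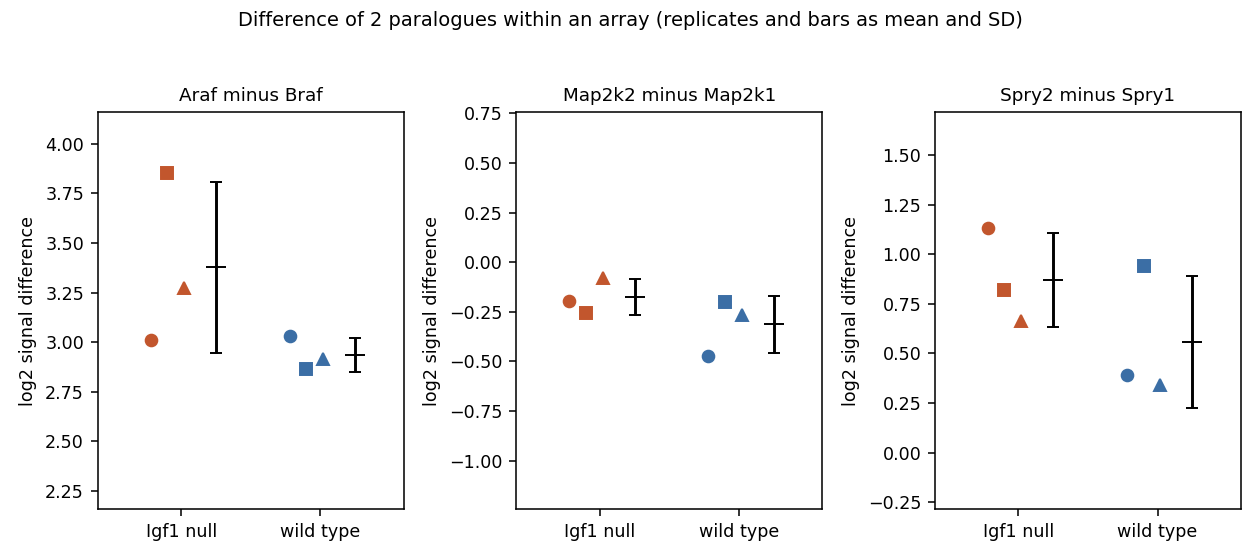
Log2 signal difference of 2 paralogues within each array, for the RAF, MEK and Sprouty pairs at their brightest probe sets, with Igf1 null arrays left of wild type arrays, symbols for replicates as in the plot of signals by array, and bars for the mean and SD of 3 arrays. The null mean is above the wild type mean in each pair, by 0.14 to 0.44, and the groups overlap in all 3.

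The members did not vary as a block across pools. Over the 21 pairs of the 7 genes, Pearson's r across the 6 arrays ran from -0.674 to 0.660 with a median of 0.170, and 14 pairs were above 0. Dusp6 ran opposite to both Sprouty genes (r = -0.674 with Spry1 and -0.628 with Spry2), and Spry1 and Spry2 were at 0.331. Among 6195 genes above the median level, the patterns most like that of Dusp6 were those of Ppm1g, Mfsd5 and Panx1 (r = 0.977, 0.966 and 0.963), those most like Spry1 were Ptpre, Dock1 and Efemp1 (0.965, 0.963 and 0.947), and those most like Spry2 were Slc39a1, Rad21 and Ndufb10 (0.988, 0.979 and 0.976). With 6 arrays, 32, 17 and 31 genes had r above 0.9 with Dusp6, Spry1 and Spry2, so these are descriptions of 6 points each.

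Around the members, 7 lists of pathway genes held 110 genes, of which 90 were measured, and 0 passed adjusted over all genes. Upstream, 12 of 17 RAS proteins, adaptors and exchange factors were lower in the null pools, with a median of -0.05. Shc1, the adaptor that links receptors to Grb2, had 7.99, 8.20 and 8.20 in null replicates 1 to 3, against 8.21, 8.50 and 8.31 in wild type replicates 1 to 3, a difference of -0.21 ± 0.13 (SE). Rasgrp1 and Rasgrf2, exchange factors that load RAS with GTP, were dim and differed by -0.63 ± 0.40 and -0.71 ± 0.53 (SE). Of 8 RAS GTPase-activating proteins, which switch RAS off, 6 were higher, with a median of 0.14. That median was 0.066 without null replicate 3, 0.065 with array weights and -0.056 on the values as deposited. Among them Rasa4 differed by 0.77 ± 0.34, Rasa2 by 0.27 ± 0.16 and Rasa1 by 0.16 ± 0.14 (SE), with overlapping arrays.

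Other kinases and scaffolds of the cascade were near 0 as a list, 8 of 11 higher with a median of 0.03. The tightest contrasts were Lamtor2, a subunit of the lysosomal scaffold for MEK and ERK (-0.15 ± 0.09 SE), the kinase chaperone gene Cdc37 (0.16 ± 0.10) and the RAF-activating scaffold gene Shoc2 (-0.11 ± 0.10). Of 7 substrate kinases and ETS cofactors of ERK, 5 were lower and the other 2 higher, and the median was -0.06. Elk1 (-0.64 ± 0.50 SE) and Elk3 (-0.13 ± 0.11) were among the lower and Rps6ka3 (0.12 ± 0.20) among the higher. All 6 differences have adjusted p above 0.99 in limma.

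The other feedback inhibitors and phosphatases were divided, 6 of 10 higher and 4 lower, with a median of 0.02 that ran from -0.10 to 0.075 when single arrays were left out, lowest without wild type replicate 1. Spred1, a Sprouty relative that suppresses RAS and RAF signalling, had 8.30, 8.37 and 8.23 in null replicates 1 to 3, against 8.16, 8.04 and 8.23 in wild type replicates 1 to 3, a difference of 0.16 ± 0.10 (SE). Errfi1, an inhibitor of epidermal growth factor receptors, had 7.99, 7.80 and 7.73 in the null arrays, against 8.17, 8.14 and 8.02 in the wild type arrays, a difference of -0.27 ± 0.11 (SE). At these probe sets the arrays of both genes were apart, in opposite directions, which makes 2 of 10 genes where 10.6% of all genes were apart. The other 2 Spred1 probe sets overlapped between genotypes and differed by 0.07 ± 0.11 and 0.06 ± 0.25 (SE). Dusp2, a nuclear ERK phosphatase gene of low signal, differed by 1.12 ± 0.39 (SE), with an unadjusted p of 0.0320 and an adjusted p of 0.972 in limma.

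Genes of the transcriptional output of ERK were lower in 13 of 19 cases, with a median of -0.14, which was -0.074 without null replicate 3, -0.22 when wild type replicate 1 was left out and -0.057 when wild type replicate 2 was. It was -0.037 after probe sets below the 40th percentile of level were left out, and -0.34 on the values as deposited. Ier3, an early response gene, had 7.04, 7.28 and 7.18 in null replicates 1 to 3, against 7.66, 7.43 and 7.39 in wild type replicates 1 to 3 (-0.33 ± 0.13 SE). Hmga2, a chromatin protein gene, had 7.81, 7.66 and 7.70 in the null arrays, against 7.57, 7.21 and 7.36 in the wild type arrays (0.34 ± 0.13 SE). Etv4, an ETS factor gene induced by ERK, had 4.12, 3.30 and 4.73 in the null arrays, against 1.84, 2.53 and 0.73 in the wild type arrays (2.35 ± 0.59 SE), at the 18.4 percentile of gene levels. These 3 had unadjusted p of 0.0440, 0.0429 and 0.0089 and adjusted p of 0.991, 0.991 and 0.884 in limma, and 3 of 19 is to be read against 4.94% of all genes. The count depends on the fit. In limma over all probe sets, Ier3 and Hmga2 had unadjusted p of 0.0518 and 0.0501 at these same probe sets. The arrays were apart for 4 of the 19 genes, where this holds for 10.6% of all genes. Otic and vestibular markers also had higher means in the null pools, 11 of 14 and 3 of 3. The log2 summed signal of vestibular markers was 10.75 to 11.69 in null and 9.99 to 10.48 in wild type arrays, without overlap. It adds unlogged signals, so it mostly reads the bright gene Oc90, while the median level of the 3 markers was 4.63. The log2 summed signal of otic markers, 11.23 to 11.70 and 10.87 to 11.47, overlapped. Arrays were apart for 2 of the 3 vestibular and 1 of the 14 otic markers. The part of these markers in the Etv4 values was not tested.

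The JNK, p38 and ERK5 cascades, parallel pathways with their own kinases, had 14 of 18 genes higher in the null pools, with a median of 0.10, where 51.3% of all genes were higher. Map2k6, a p38 activator gene, differed by -0.44 ± 0.20 (SE), Mapk13, the p38 delta gene, by 0.42 ± 0.20, and Map3k3, which acts upstream of ERK5, by 0.20 ± 0.14. The list median was -0.036 on the values as deposited, and 0.049 without null replicate 2 and 0.054 without wild type replicate 3. No gene of the list passed, with 0 at an unadjusted p under 0.05.

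**Figure D4:**
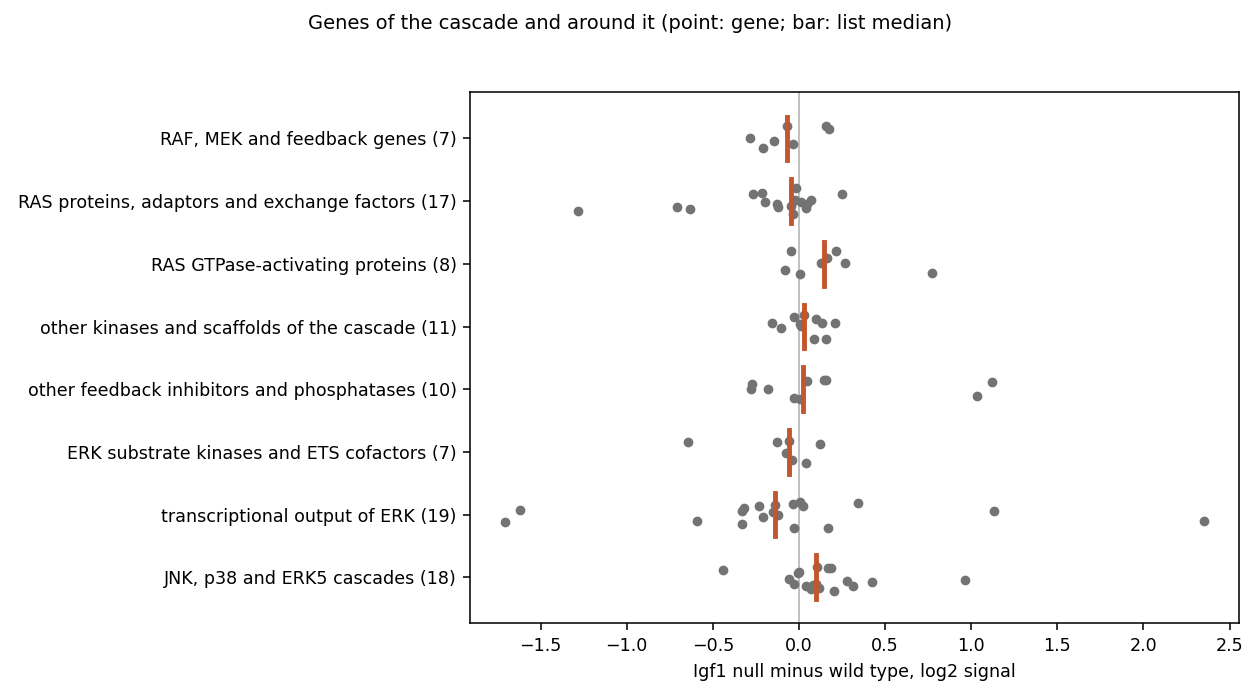
Difference of Igf1 null minus wild type in log2 signal for each measured gene (points) of the cascade and of 7 surrounding lists, with the number of genes in parentheses and the list median as a bar; vertical scatter within a list has no meaning. List medians run from -0.14 to 0.14, and the points farthest from 0 belong to dim genes such as Etv4.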

How the data were processed

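Gene expression was measured on 6 single-colour Affymetrix arrays, 3 Igf1 null and 3 wild type. The deposited table holds 1 log2 signal per probe set and array. Base 2 is an inference from the top of the values. How signals were summarised, background-corrected and scaled is not stated in the labels. Array medians differed, so the arrays were quantile normalized after 64 control probe sets were left out. Of 22626 probe sets, 20380 had 1 gene, 691 several and 1555 none in the platform annotation, and a gene was represented by its brightest probe set. The genotype contrast was fitted with limma 3.58.1 (lmFit, eBayes, two-sided, no covariate; R 4.3.3), and p-values were adjusted by Benjamini-Hochberg across all probe sets (members) or genes (lists), with a threshold of 0.05. Exact permutation tests used all 20 splits of the arrays. The members and lists were chosen with earlier results of these data known.

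The genes named are all members and Igf1, up to 3 genes per pathway list by smallest p, and 3 genes of most similar pattern for each feedback inhibitor. Coch, Tecta, Oc90 and the 5 dim cochlear markers, and in the closing section Etv5 and Spred2, were chosen after their values were seen. On simulated data of 22626 probe sets, 200 were changed in each of 20 simulations. The true difference was held by 94.6% of the 95% intervals when each probe set's SD was drawn from limma's posterior. This was 94.5% when the SD was set to the sample SD. With the posterior draws it was 90.1% to 93.9% below the median level, by size of change, and 97.0% to 98.0% above it. Among probe sets above the median level, the share of changes called for this comparison depended on how the SD was set. It was 0% of 2-fold and 45.5% of 4-fold changes with the posterior draws, and 12.6% and 74.0% with the sample SD. Below the median level, 9.14% and 13.6% of 4-fold changes were called, in the same order. The simulation first used the sample SD, and the posterior draws were added after its output had been seen. The promoter motifs were chosen after the promoter sequences had been seen. The number of arrays limits the precision. The design text calls the pools independent. Alternatives were the deposited values, median centring, blocks, variance models, array weights (statmod 1.5.0), a pseudocount of 32, a filter at the 40th percentile of level, means over probe sets, and leaving out arrays.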

Additional observations from a re-analysis of the deposited data

How the results depend on the processing

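In limma, 0 probe sets on the array, 0 of the member probe sets and 0 pathway genes passed under every alternative run, and the smallest adjusted p of a member was 0.697, for Map2k1. Of 12 differences (9 probe sets and 3 paralogue pairs), 7 kept their sign under all alternatives that gave a value. Blocks, variance models and the filter cannot change a difference, so they do not bear on its sign. Sign changes, all between values within 1 SE of 0, were Dusp6 with median centring (0.0035) and without wild type replicate 2 (0.0048), Spry1 without wild type replicate 3 (0.080), the mean over the Map2k2 probe sets (0.079), and, without title number 14, the dimmer Map2k2 (-0.023) and brighter Spry2 (-0.088) probe sets. The cause was not tested. With single arrays left out, differences ran from -0.40 to -0.10 for Braf, 0.10 to 0.25 for Araf, -0.24 to -0.16 for Map2k1, -0.16 to -0.020 and 0.037 to 0.49 for the 2 Map2k2 probe sets, -0.069 to 0.0048 for Dusp6, -0.35 to 0.080 for Spry1, 0.0099 to 0.29 and 0.14 to 0.70 for the 2 Spry2 probe sets, 0.21 to 0.62 for Araf minus Braf, 0.058 to 0.19 for Map2k2 minus Map2k1 and 0.19 to 0.51 for Spry2 minus Spry1. On the values as deposited, Braf differed by -0.53 and Araf by 0.026. With single arrays left out, the medians of the other lists ran from -0.10 to -0.022 for RAS proteins, adaptors and exchange factors, 0.028 to 0.072 for other kinases and scaffolds and -0.16 to -0.021 for substrate kinases and ETS cofactors, and on the values as deposited all 8 medians, that of the members included, were below 0. Probe sets at an unadjusted p under 0.05 numbered 673 after the filter, which tests fewer, and 1613 with array weights. Replicate numbers are shared by the genotypes, but same-numbered arrays deviated together with correlations of 0.040, 0.10 and 0.021 only, and 5 of 6 arrays correlated best with their own number, a hint from the data and not the design. With the replicate number as a block, 0 probe sets passed and 1327 had an unadjusted p under 0.05. Each replicate number holds both genotypes equally, so this block could not change a difference (Map2k1 -0.21). The filter removed the Braf and dimmer Spry2 probe sets, so it gave no value for them.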

Other observations

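The ETS factor genes Etv4 and Etv5, both known to be induced by ERK, had different values. Etv5 differed by -0.03 ± 0.19 (SE) at its brighter and -0.22 ± 0.20 at its dimmer probe set, against 2.35 ± 0.59 at the only Etv4 probe set, whose level was at percentile 21.9 over all probe sets. No test of the difference between the genes was made.

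Spred2, a relative of Spry1 and Spry2 that also suppresses RAS and RAF signalling, gave opposite signs at its 2 probe sets. The brighter had 8.19, 8.32 and 8.36 in null replicates 1 to 3, against 8.31, 8.55 and 8.54 in wild type replicates 1 to 3, a difference of -0.18 ± 0.12 (SE). The dimmer had 4.11, 3.52 and 4.33 in the null arrays, against 1.01, 1.40 and 3.10 in the wild type arrays, a difference of 2.15 ± 0.60 (SE, adjusted p = 0.889 in limma over all probe sets). Hmga2 was higher in each null array than in each wild type array at all 3 of its probe sets, by 0.34, 0.41 and 0.47. Adjusted p was between 0.974 and 0.980 in limma. The 3 probe sets read the same 6 samples, and arrays were apart at 10.8% of all probe sets.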
